A study of Mus musculus with 12 samples.

Results

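The genes described here are 9 genes of the basement membrane, the sheet of extracellular matrix on which epithelial cells rest, measured in cultured 4T1 cells. They are the laminin chain genes Lama3, Lama5, Lamb1, Lamb2, Lamb3 and Lamc1, the nidogen gene Nid1, and the heparan sulfate proteoglycan genes Hspg2 (perlecan) and Agrn (agrin). They were listed by symbol with earlier results of these data known, and are 9 of the 31017 genes in the count tables and 9 of the 13763 genes that had enough counts to be tested. 4T1 is a mouse mammary carcinoma line, and its polyadenylated RNA was read in 12 libraries, 2 for each of 6 groups.

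The control cells were pools of clones that had received control sgRNA by nucleofection. Clone 1 and clone 2 are single clones labelled Etv4 knockout, each derived from cells given Cas9 and sgRNA against the gene, whose product is an ETS transcription factor. Each of the 3 was grown on plastic (2D) or inside gels of collagen I (3D). A difference between a clone and the control pool is therefore a difference of 1 clone, and the targeting of Etv4 cannot be told apart in it from what is particular to that clone. Cells were freed from the gels with collagenase ahead of RNA extraction and the plastic cultures were not so treated, so culture format and digestion cannot be told apart. The labels do not say whether the 2 libraries of a group came from separate cultures, so every p-value measures only the spread between these libraries.

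Laminins are trimers of an alpha, a beta and a gamma chain that assemble inside the cell, are secreted and polymerize into a network under the cells. Trimers with the alpha3 and beta3 chains, encoded by Lama3 and Lamb3, anchor epithelia through the integrin of hemidesmosomes, while alpha5 chains combine with the beta1 or beta2 and the gamma1 chain in the general epithelial basement membrane. Nidogen links the laminin network to collagen IV, and perlecan and agrin carry heparan sulfate chains that hold growth factors and tie the network to receptors such as dystroglycan.

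Within each clone in 3D Lamb3 and Agrn moved in opposite directions, and the sequences upstream of their starts are shown for that reason. RefSeq promoter entries (build GRCm38.p6) were used for 7 of the 9 genes. None was used for Lama3 or Lamc1, so those genes were not searched. For the 7 genes, the 250 bases before each start were searched on both strands. The search was for TGANTCA, a form of the AP-1 site, and GGAAGT, a form of the ETS site, each counted on its own. GGAA followed by other bases was not counted. The window before a start of Lamb3 is chr1:193301744-193301993 (plus strand) and that before a start of Agrn is chr4:156197489-156197738 (minus strand), both printed 5′ to 3′ in the direction of transcription, with all letters in lower case because neither motif was found in them.
Lamb3: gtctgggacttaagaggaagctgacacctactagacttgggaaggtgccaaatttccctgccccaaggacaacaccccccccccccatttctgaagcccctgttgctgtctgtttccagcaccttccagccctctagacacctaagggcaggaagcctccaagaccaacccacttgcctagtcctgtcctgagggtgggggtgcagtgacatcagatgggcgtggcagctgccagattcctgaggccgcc
Agrn: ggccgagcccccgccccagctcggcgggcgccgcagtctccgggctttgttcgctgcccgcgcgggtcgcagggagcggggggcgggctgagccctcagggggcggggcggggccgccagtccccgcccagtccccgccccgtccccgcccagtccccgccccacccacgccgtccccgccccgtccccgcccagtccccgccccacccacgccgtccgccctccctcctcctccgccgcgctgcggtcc
The Lamb3 window is 58.8% G and C, and the Agrn window is 83.6% G and C with runs of c and g along its length. Of the windows of the 7 genes, 1 held a match, GGAAGT 20 bases before the start of Lamb2 on the minus strand. Among 32851 windows of the same length, 6.75% held TGANTCA and 19.7% held GGAAGT. A match, or its absence, in a window of this length describes the letters and says nothing about the binding of a factor.

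Positions are from GENCODE M21 on mouse build mm10. Among the alpha chain genes, Lama3 lies on chromosome 18 (12333819 to 12583013, plus strand) and Lama5 on chromosome 2 (180176373 to 180225859, minus strand). Among the beta chain genes, Lamb1 lies on chromosome 12 (31265234 to 31329644, plus strand), Lamb2 on chromosome 9 (108479736 to 108490530, plus strand) and Lamb3 on chromosome 1 (193207699 to 193343878, plus strand). Lamc1 lies on chromosome 1 (153218922 to 153332786, minus strand). Nid1 lies on chromosome 13 (13437551 to 13512269, plus strand), and Hspg2 (137468769 to 137570630, plus strand) and Agrn (156165290 to 156197488, minus strand) lie on chromosome 4. All are annotated as protein coding. Exons of other genes on the opposite strand overlap 1.833% of the exon bases of Lama3 and 2.06% of those of Nid1, and no other of the 9 genes has such an overlap.

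The 2D libraries held 12.3 to 18.7 M counts and the 3D libraries 26.5 to 33.2 M. Etv4 itself was measured in 2D at 77.1 ± 1.46 CPM (counts per M, SD, n = 2) for control, 49.5 ± 0.464 for clone 1 and 47.6 ± 2.29 for clone 2, and in 3D at 97.1 ± 3.35, 69.5 ± 0.542 and 89.1 ± 3.47 CPM. Etv4 was called lower in 2D in clone 1 (-0.64 ± 0.07) and clone 2 (-0.69 ± 0.07) and in 3D in clone 1 (-0.48 ± 0.06), and not in clone 2 in 3D (log2 fold change -0.12 ± 0.06 SE, adjusted p = 0.12). Etv4 lies on chromosome 11, and the 260 genes within 10 Mb of it had medians against control for clone 1 of -0.47 on plastic and -0.49 in gels, and for clone 2 of -0.08 and 0.00. In clone 1 in 3D the fall of Etv4 was thus no larger than the median of its neighbours, and the part of the chromosome in it was not tested. A transcript abundance does not show whether the protein was made. All 7 epithelial markers (Epcam, Krt8, Krt18, Krt19, Cdh1, Cldn7 and Esrp1) were expressed, with summed levels of 2409 to 4239 CPM. Summed over their lists, fibroblast markers reached 4.11 to 23.8 CPM, endothelial markers 3.53 to 14.9 and leukocyte markers 1.75 to 11.6. Col3a1, Lum and Pdgfrb were at 0 counts in every group. Basal or myoepithelial markers, of which 3 of 7 had enough counts to be tested and Krt5 was at 0 in every group, summed in 2D to 79.3 and 79.9 CPM for control, 9.99 and 13.3 for clone 1 and 41.5 and 42.0 for clone 2. In 3D these sums were 35.6 and 37.2 CPM for control, 14.9 and 17.2 for clone 1 and 8.36 and 8.54 for clone 2. The part of these marker differences in the results for the laminins was not tested.

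The alpha chain genes differed in how much they moved between groups. Lama3 in 2D was at 119 and 116 CPM for control, 142 and 132 for clone 1 and 202 and 214 for clone 2. Its 3D levels were 459 and 426 CPM for control, 769 and 807 for clone 1 and 317 and 318 for clone 2. Every 3D library thus lay above every 2D library, clone 2 was highest in 2D and lowest in 3D, and no groups overlapped. In bulk RNA such as this, fewer cells that express a gene and less of its RNA per cell cannot be told apart. Lama5 in 2D was at 533 and 584 CPM for control, 616 and 647 for clone 1 and 410 and 401 for clone 2, and at 881 and 864, 945 and 976, and 846 and 829 in 3D. Clone 1 was highest and clone 2 lowest in both formats, again with no overlap between groups.

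Of the beta chain genes, Lamb1 stayed between 451 and 600 CPM in all 12 libraries, while Lamb3 spread widely in 3D. Lamb1 in 2D was at 451 and 503 CPM for control, 569 and 543 for clone 1 and 563 and 600 for clone 2, and at 490 and 478, 468 and 492, and 531 and 529 in 3D. Lamb2, the lowest of the 6 laminin chains per kb, stood in 2D at 35.1 and 32.3 CPM for control, 47.9 and 55.5 for clone 1 and 28.4 and 30.6 for clone 2, and its 6 libraries in 3D lay between 71.0 and 76.1. Lamb3 in 2D was at 216 and 225 CPM for control, 199 and 201 for clone 1 and 207 and 224 for clone 2. In 3D the Lamb3 groups were far apart, at 415 and 424 CPM for control, 644 and 684 for clone 1 and 182 and 185 for clone 2, which was below every 2D library. Lamc1, the gamma chain of most laminins, stood in 2D at 283 and 293 CPM for control, 302 and 318 for clone 1 and 212 and 202 for clone 2, and at 517 and 490, 478 and 501, and 325 and 322 in 3D. Clone 2 was the low group for Lamc1 in both formats, and control and clone 1 overlapped in 3D.

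Nid1 was close to absent in these cells. Its counts were 5 and 13 in control in 2D, 12 and 22 in clone 1 and 2 and 1 in clone 2, and 6 and 7, 15 and 12, and 4 and 3 in 3D, out of at least 12.3 M per library. Nid2, the other nidogen gene, had 0 counts in all 6 libraries in 2D and 4, 7 and 8 in the 3D groups of control, clone 1 and clone 2. Hspg2 in 2D was at 207 and 246 CPM for control, 281 and 327 for clone 1 and 195 and 178 for clone 2, and at 516 and 500, 514 and 526, and 637 and 645 in 3D. Clone 2 was thus the lowest group for Hspg2 in 2D and the highest in 3D. Agrn in 2D was at 152 and 152 CPM for control, 151 and 146 for clone 1 and 198 and 186 for clone 2, and at 262 and 270, 201 and 214, and 341 and 351 in 3D. Clone 2 was the high group for Agrn in both formats, and clone 1 the low group in 3D.

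**Figure D1:**
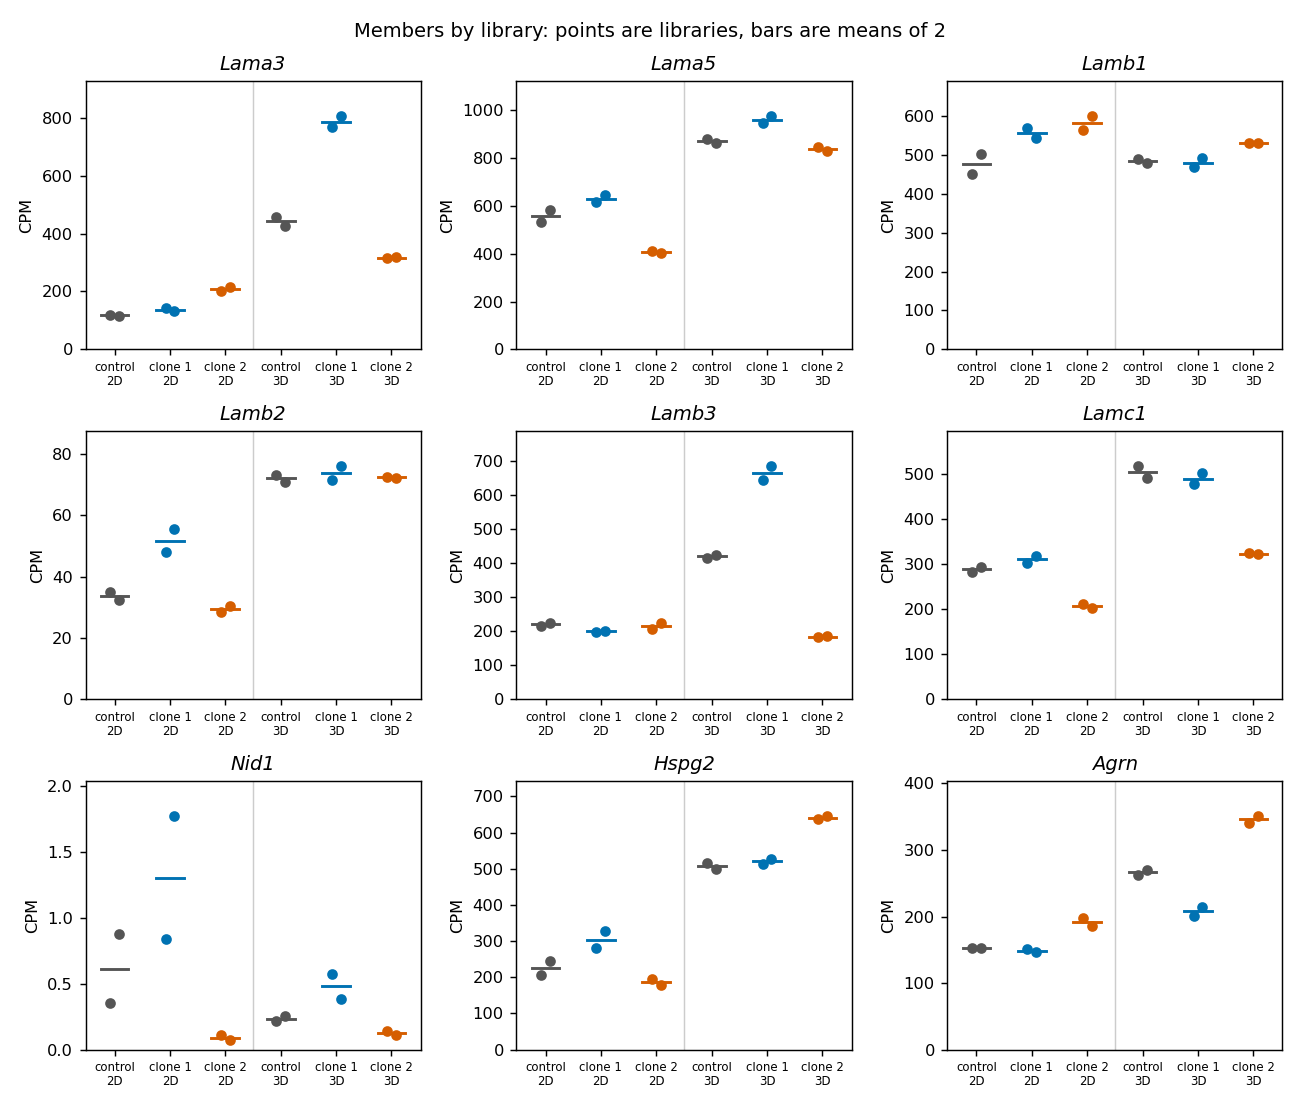
Level of each of the 9 genes in every library, in CPM on a linear axis that starts at 0 and has its own scale for each gene; points are libraries and bars are means of 2. Lama3 and Lamb3 are highest in clone 1 in 3D (644 to 807 CPM), Hspg2 and Agrn are highest in clone 2 in 3D, and Nid1 stays below 2 CPM in every library.

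Levels can be compared between genes only per length, here as CPM per kb of merged exon. In control in 2D the order on that scale was Lama5 (49.1 ± 3.18, SD, n = 2), Lamb1 (48.1 ± 3.73), Lamc1 (34.9 ± 0.841), Lamb3 (33.3 ± 0.951), Agrn (16.4 ± 0.0207), Hspg2 (15.8 ± 1.90), Lama3 (10.9 ± 0.235), Lamb2 (5.54 ± 0.323) and Nid1 (0.0883 ± 0.0537). The libraries of Lama5 and Lamb1 overlapped, as did those of Agrn and Hspg2, so those neighbours have no order. In control in 3D the order became Lama5 (76.6 ± 1.06), Lamb3 (63.5 ± 0.925), Lamc1 (60.9 ± 2.27), Lamb1 (48.8 ± 0.846), Lama3 (41.2 ± 2.15), Hspg2 (35.5 ± 0.795), Agrn (28.7 ± 0.578), Lamb2 (11.9 ± 0.258) and Nid1 (0.0338 ± 0.00326). In clone 1 in 3D Lamb3 was first at 100.4 ± 4.29 CPM per kb, before Lama5 at 84.4 ± 1.92 and Lama3 at 73.3 ± 2.52. In clone 2 in 3D Lamb3 was the seventh of the 9 genes at 27.8 ± 0.308, and Lama5 was first at 73.6 ± 1.08. In the 2D groups Lama5 and Lamb1 led throughout, with overlap in clone 1 and Lamb1 above Lama5 in clone 2 (58.6 ± 2.65 against 35.6 ± 0.563). These orders depend on the length used, since the merged exons of Lamb1 span 9917 bases and its longest transcript 5784, and those of Lamb3 span 6612 and 4867.

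Read as shares of the alpha or beta class of chain per kb, the mix of laminin transcripts differed between groups. Among alpha chains, Lama3 made up 18.3% ± 1.29 (SD, n = 2) in control in 2D, 18.7% ± 1.38 in clone 1 and 35.3% ± 1.29 in clone 2, and nearly all of the rest was Lama5. In 3D the Lama3 share was 35.0% ± 0.873 for control, 46.5% ± 0.288 for clone 1 and 28.6% ± 0.340 for clone 2, so the order of the clones was turned between formats. Lama1, Lama2 and Lama4 had 0, 8 and 2 counts over all 12 libraries. Among beta chains, the Lamb3 share was 38.3% in control in 2D, 31.9% in clone 1 and 33.9% in clone 2, and 51.1%, 62.4% and 29.8% in 3D. Lamb1 held 39.3% in control in 3D, 30.1% in clone 1 and 57.4% in clone 2, and Lamb2 held 5.05 to 12.8% over the 6 groups. Taken per longest transcript, the Lamb3 shares in 3D were 47.2% in control, 58.7% in clone 1 and 26.5% in clone 2. These shares are of RNA and not of protein, and a class with several partners cannot be resolved into trimers.

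**Figure D2:**
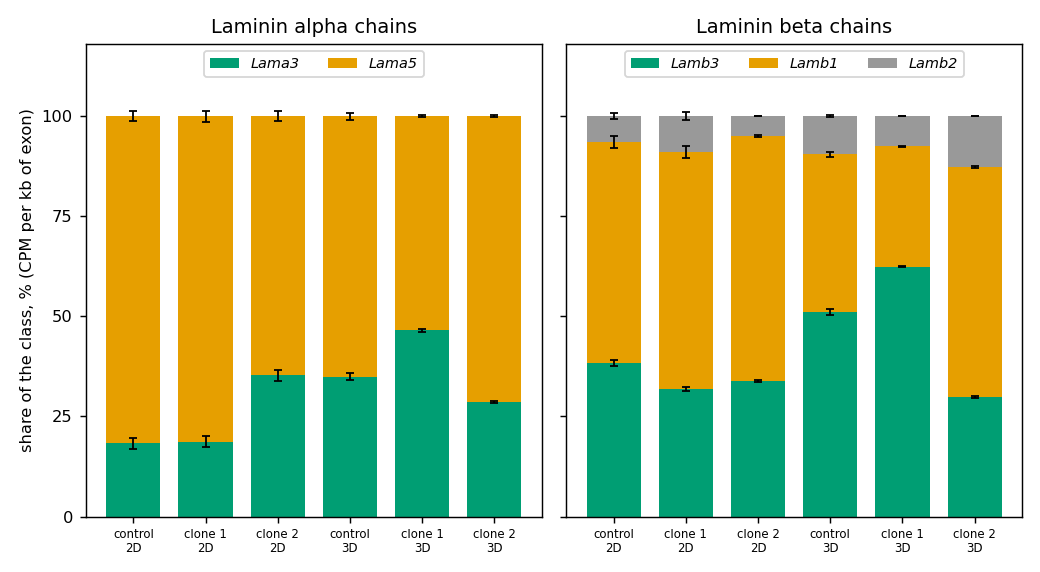
Share of each gene in the summed level (CPM per kb of merged exon) of its class of laminin chain, in percent, for alpha and beta chains in the 6 groups; bars are means of 2 libraries and error bars are SD. The Lama3 and Lamb3 shares are largest in clone 1 in 3D, at 46.5% and 62.4%, and the Lamb3 share of clone 2 is 33.9% in 2D and 29.8% in 3D.

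Culture in collagen gel was compared with culture on plastic within each kind of cell. In control cells 7 of the 9 genes rose in 3D and none fell, where 77.2% of all genes tested were called (41.7% higher and 35.6% lower). The median log2 fold change of the 9 genes was 0.81, beside 0.10 over all genes. Lama3 rose most, by 1.91 ± 0.06 (SE) on the log2 scale (3.76-fold, adjusted p = 1.3e-20). The proteoglycan gene Hspg2 rose by 1.17 ± 0.07 (adjusted p = 1.8e-14) and Agrn by 0.81 ± 0.05 (adjusted p = 2.4e-13). Of the other chains, Lamb2 rose by 1.10 ± 0.08, Lamb3 by 0.93 ± 0.05, Lamc1 by 0.80 ± 0.05 and Lama5 by 0.64 ± 0.05, each with an adjusted p of 1.3e-11 or less. Lamb1 was at 0.02 ± 0.05 (adjusted p = 0.73) and at -0.14 (adjusted p = 0.023) once the median of its chromosome was subtracted. Nid1 was at -1.37 ± 0.67 (adjusted p = 0.067), and ranged from -1.87 (adjusted p = 0.0267) without control 2D replicate 1 to -0.56 (adjusted p = 0.61) without control 2D replicate 2.

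In clone 1 all 9 genes were called between formats (75.1% of all genes, 39.8% higher and 35.3% lower), 7 higher and 2 lower, with a median of 0.61 beside 0.08 over all genes. Lama3 rose by 2.52 ± 0.06 (5.75-fold, adjusted p = 4.2e-23) and Lamb3 by 1.73 ± 0.05 (3.32-fold, adjusted p = 2.3e-20). Hspg2, Lamc1, Lama5, Lamb2 and Agrn rose by 0.78, 0.66, 0.61, 0.52 and 0.49. Lamb1 fell by 0.21 ± 0.05 (adjusted p = 0.0012; -0.14 with other size factors or with DESeq2), and Nid1 fell by 1.43 ± 0.53 (adjusted p = 0.018), from 34 counts to 27 in deeper libraries. The Nid1 call was lost without clone 1 2D replicate 2 (-0.82, adjusted p = 0.302) or clone 1 3D replicate 2 (-1.16, adjusted p = 0.153), and with DESeq2 (-1.38, adjusted p = 0.0894).

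In clone 2, 6 of the 9 genes rose in 3D and 2 fell (79.5% of all genes called, 42.5% higher and 37.0% lower), with a median of 0.64 beside 0.11 over all genes. Hspg2 rose most, by 1.78 ± 0.07 (3.43-fold, adjusted p = 1.9e-18), followed by Lamb2 at 1.30 ± 0.08 and Lama5 at 1.05 ± 0.05. Agrn, Lamc1 and Lama3 rose by 0.85, 0.64 and 0.61. Lamb3 fell by 0.23 ± 0.05 (adjusted p = 0.00041), where it had risen in control and in clone 1, and was at -0.13 (adjusted p = 0.025) with the median of chromosome 1 subtracted. Lamb1 was at -0.13 ± 0.05 (adjusted p = 0.030), a call lost without clone 2 2D replicate 2 or any 1 of the 6 libraries in 3D, with other size factors (-0.06, adjusted p = 0.339), with DESeq2, with no filter and without Gm26917 and Gm42418, and it was -0.23 (adjusted p = 0.00036) with the chromosome median subtracted. Nid1 was at 0.42 ± 1.13 (adjusted p = 0.74). Lama3, Lama5, Lamb2, Lamc1, Hspg2 and Agrn rose in 3D in control and in both clones, as did 32.7% of all genes tested. Gm26917, an abundant predicted transcript, took 1.75 to 2.03% of the counts in 2D and 10.9 to 14.95% in 3D, and the 6 genes rose in all 3 kinds of cell also without it and Gm42418.

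**Figure D3:**
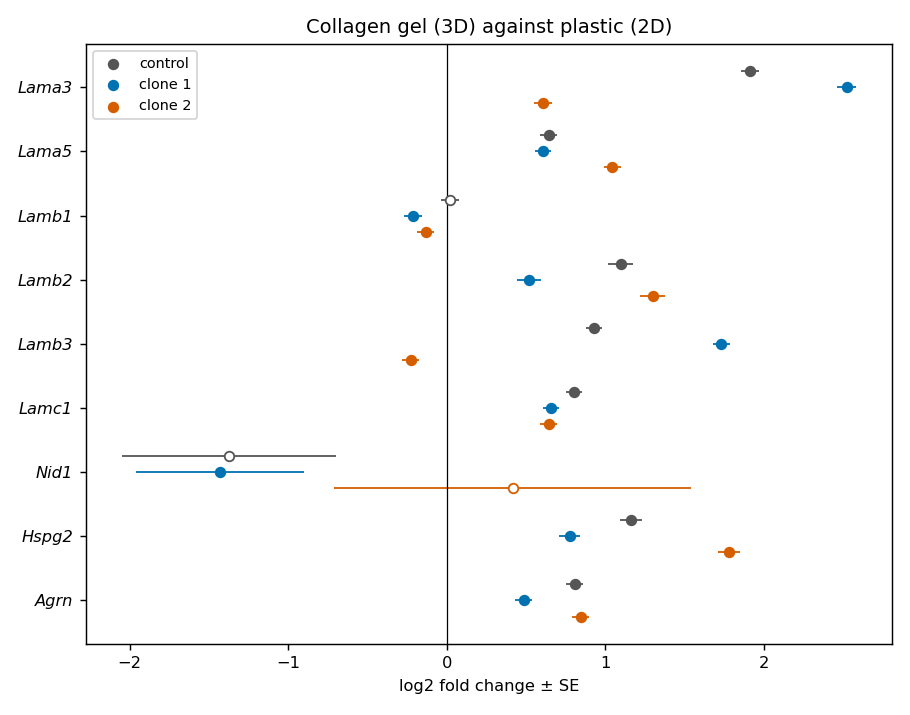
Log2 fold change of 3D against 2D for each gene in control, clone 1 and clone 2, with SE; filled points passed an adjusted p of 0.05 and open points did not. Lama3 runs from 0.61 in clone 2 to 2.52 in clone 1, Lamb3 lies at -0.23 in clone 2 and at 0.93 and 1.73 in the others, and Hspg2 is largest in clone 2.

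Each clone was then compared with control on plastic, which addresses how a clone labelled Etv4 knockout differed from the control pool in 2D. Both clones were set against the same control libraries. In clone 1, 5 of the 9 genes rose and 1 fell, where 39.8% of all genes were called (19.8% higher and 20.0% lower), with a median of 0.22 beside 0.00 over all genes. Lamb2 rose most, by 0.62 ± 0.08 (1.53-fold, adjusted p = 1.8e-06), and Hspg2 rose by 0.42 ± 0.07 (1.34-fold, adjusted p = 2.4e-05). Lama3, Lamb1 and Lama5 rose by 0.22 ± 0.06 (adjusted p = 0.0046), 0.22 ± 0.06 (adjusted p = 0.0023) and 0.18 ± 0.05 (adjusted p = 0.0088). Lamb3 was at -0.14 ± 0.06 (adjusted p = 0.043), Lamc1 at 0.11 ± 0.05 (adjusted p = 0.12), Agrn at -0.04 ± 0.06 (adjusted p = 0.66) and Nid1 at 1.05 ± 0.57 (adjusted p = 0.15). The calls of Lama3, Lama5, Lamb1 and Lamb3 were lost when the chromosome medians were subtracted (0.13, 0.07, 0.04 and -0.04). Lamb2 and Hspg2 were then still called, and Lamc1 gained a call (0.21, adjusted p = 0.0038). The chromosome medians of Lama3, Lama5, Lamb1 and Lamb3 were 0.09, 0.11, 0.18 and -0.10. The medians over the genes within 10 Mb of them were 0.00, 0.00, 0.03 and -0.10. The calls of those 4 genes were also lost when single libraries were left out: Lama3 without clone 1 2D replicate 1 (0.16), Lama5 without control 2D replicate 1 (0.11) or clone 1 2D replicate 2 (0.14), Lamb1 without control 2D replicate 1 (0.14), and Lamb3 without control 2D replicate 2, clone 1 3D replicate 1, or either library of clone 1 in 2D, control in 3D or clone 2 in 3D (adjusted p = 0.0556 to 0.203). The Lamb3 call was lost as well with other size factors (adjusted p = 0.0657), with DESeq2 (adjusted p = 0.067) and when only 2D libraries were fitted (adjusted p = 0.0884).

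In clone 2 in 2D, 3 of the 9 genes rose and 4 fell (33.9% of all genes called, 18.9% higher and 15.0% lower), with a median of -0.20 beside 0.02 over all genes. Lama3 rose by 0.82 ± 0.06 (1.77-fold, adjusted p = 7.8e-11), while the other alpha chain, Lama5, fell by 0.46 ± 0.05 (adjusted p = 2.3e-07). Lamc1, which pairs with Lama5 in laminin trimers, fell by 0.48 ± 0.05 (adjusted p = 1.6e-07). The 77 genes within 10 Mb of Lamc1 had a median of -0.42 in the same comparison, and Lamc1 less the median of chromosome 1 was -0.19 (adjusted p = 0.011). Agrn rose by 0.34 ± 0.06 (adjusted p = 3.2e-05) and Lamb1 by 0.28 ± 0.06 (adjusted p = 0.00025), and neither call held after the chromosome medians were subtracted (0.14 and 0.11). The genes within 10 Mb of Agrn and Lamb1 had medians of 0.06 and 0.08, beside 0.20 and 0.17 for their chromosomes. Hspg2 fell by 0.28 ± 0.07 (adjusted p = 0.0031), a call lost without control 2D replicate 2 (-0.15, adjusted p = 0.129) or clone 2 2D replicate 2 (-0.22, adjusted p = 0.0654), and with the chromosome median subtracted it was at -0.48 (adjusted p = 1.4e-05). Nid1 was called lower (adjusted p = 0.026) on 3 counts against 18 in control, a ratio of control to clone 2 of 6.69 with a 95% exact counting interval of 1.95 to 35.5. That call was lost without control 2D replicate 2 (-1.86) or either clone 2 2D library, replicate 1 (-3.02, adjusted p = 0.0899) or replicate 2 (adjusted p = 0.102), and when only 2D libraries were fitted (adjusted p = 0.0668). Lamb2 was at -0.20 ± 0.09 (adjusted p = 0.089). Lamb3 was at -0.03 ± 0.05 (adjusted p = 0.69), and at 0.26 (adjusted p = 0.00076) after the chromosome 1 median of -0.29 was subtracted.

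In collagen gels the pair Lama3 and Lamb3 moved up in clone 1 and down in clone 2. In clone 1, 3 of the 9 genes rose and 1 fell, where 45.1% of all genes were called (22.0% higher and 23.0% lower), and the median was 0.03 beside 0.00 over all genes. Lama3 rose by 0.83 ± 0.05 (1.78-fold, adjusted p = 1.4e-12) and Lamb3 by 0.66 ± 0.05 (1.58-fold, adjusted p = 5.9e-11). Agrn, the proteoglycan that also organizes the neuromuscular synapse, fell by 0.36 ± 0.05 (adjusted p = 2.5e-06), and was at -0.24 (adjusted p = 0.00073) with the chromosome median subtracted. Lama5 was called at 0.14 ± 0.05 (adjusted p = 0.028), which was 0.01 (adjusted p = 0.87) after the chromosome median was subtracted. The 79 genes within 10 Mb of Lama5 had a median of -0.09, beside 0.13 for its chromosome. The Lama5 call was also lost without either control 3D library (0.14 and 0.12), either clone 1 3D library (0.15 in both) or clone 2 3D replicate 2 (0.13). Lamb1 (-0.01 ± 0.05), Lamb2 (0.03 ± 0.07), Lamc1 (-0.04 ± 0.05) and Hspg2 (0.03 ± 0.07) had adjusted p of 0.54 to 0.88, and their libraries overlapped those of control. After the chromosome 12 median of 0.23 was subtracted, Lamb1 was at -0.24 (adjusted p = 0.0011). The 61 genes within 10 Mb of Lamb1 had a median of 0.05 in this comparison, so the centred value depends on the span of genes used. Nid1 was at 0.99 ± 0.63 (adjusted p = 0.21), on 27 counts against 13.

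In clone 2 in 3D, 2 of the 9 genes rose and 3 fell (29.2% of all genes called, 11.9% higher and 17.4% lower), with a median of -0.06 beside 0.00 over all genes. Lamb3 fell by 1.19 ± 0.05, to 43.8% of control (adjusted p = 3.4e-15), Lamc1 fell by 0.64 ± 0.05 (adjusted p = 2.5e-10) and Lama3 fell by 0.48 ± 0.05 (adjusted p = 8.0e-08). Lamb3 and Lamc1 lie on chromosome 1, whose 776 tested genes had a median of -0.53 in this comparison. The medians were -0.55 over the 70 genes within 10 Mb of Lamb3 and -0.66 over the 77 genes within 10 Mb of Lamc1. With the chromosome median subtracted, Lamb3 was at -0.66 (adjusted p = 4.6e-10) and Lama3, on chromosome 18, at -0.41 (adjusted p = 1.7e-06). Lamc1 was then at -0.11 (adjusted p = 0.13), no longer called. The copy number of chromosome 1 was not measured, and its part in these values was not tested. Agrn rose by 0.38 ± 0.05 (adjusted p = 2.0e-06) and Hspg2 by 0.33 ± 0.07 (adjusted p = 0.00029), and with the median of chromosome 4 subtracted they were at 0.24 (adjusted p = 0.00098) and 0.20 (adjusted p = 0.030). Lama5 was at -0.06 ± 0.05 (adjusted p = 0.43), Lamb1 at 0.13 ± 0.05 (adjusted p = 0.072), Lamb2 at 0.01 ± 0.07 (adjusted p = 0.96) and Nid1 at -0.88 ± 0.81 (adjusted p = 0.46). Lamb1 was called higher with no filter (adjusted p = 0.0372), without Gm26917 and Gm42418 (adjusted p = 0.0412), with DESeq2 (adjusted p = 0.0485), when only 3D libraries were fitted (adjusted p = 0.0076) and without either control 2D library (adjusted p = 0.0353 for each), at 0.13 to 0.15.

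**Figure D4:**
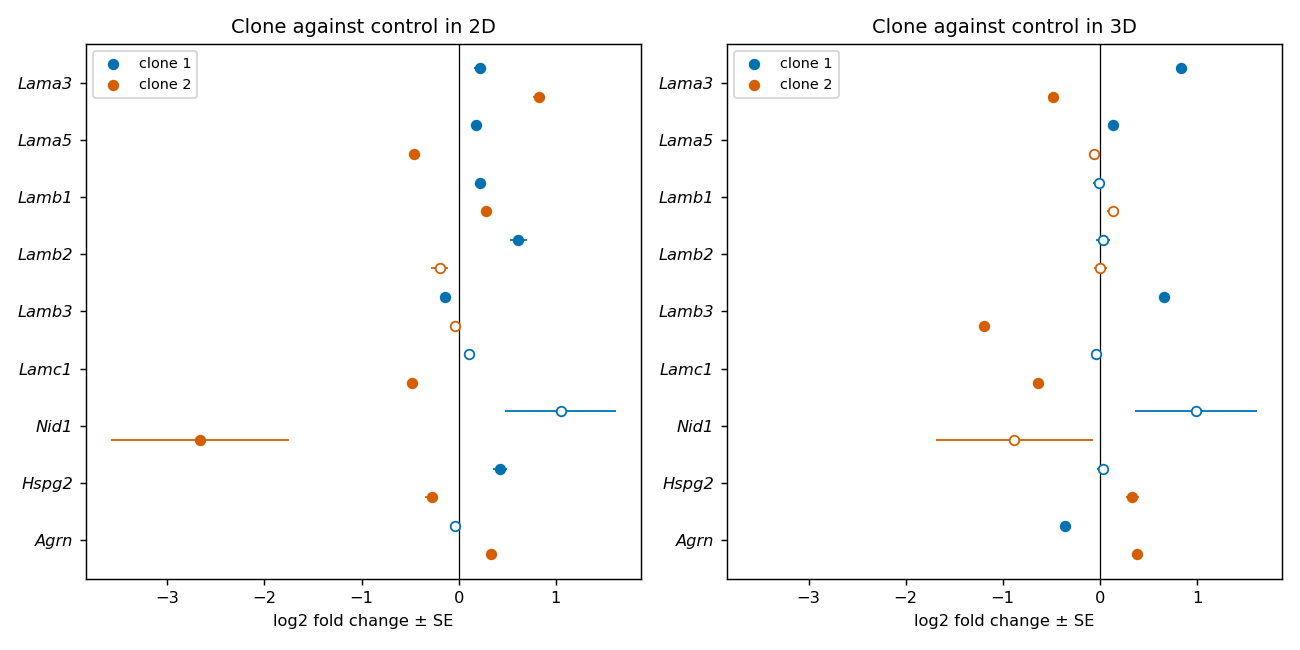
Log2 fold change of clone 1 and clone 2 against control in 2D (left) and 3D (right), with SE; filled points passed an adjusted p of 0.05 and open points did not. In 3D, Lama3 and Lamb3 lie at 0.83 and 0.66 in clone 1 and at -0.48 and -1.19 in clone 2, and Agrn lies the other way at -0.36 and 0.38.

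Set directly against each other, the clones differed at most of these genes. In 2D, clone 2 was higher than clone 1 at 2 of the 9 genes and lower at 5 (41.6% of all genes called, 23.2% higher and 18.4% lower), with a median of -0.59 beside 0.01 over all genes. Lama3 was higher in clone 2 by 0.60 ± 0.06 (adjusted p = 6.6e-09) and Agrn by 0.37 ± 0.06 (adjusted p = 4.9e-06; 0.09, adjusted p = 0.23, with chromosome medians subtracted). Lower in clone 2 were Lamb2 (-0.81 ± 0.09), Hspg2 (-0.70 ± 0.07), Lama5 (-0.64 ± 0.05), Lamc1 (-0.59 ± 0.05) and Nid1, with 3 counts against 34 (ratio of clone 1 to clone 2 of 13.8, 95% exact counting interval 4.33 to 70.1). With the median of chromosome 1 subtracted, Lamc1 was at -0.39 (adjusted p = 2.7e-06) and Lamb3 was called higher in clone 2, at 0.30 (adjusted p = 9.6e-05). In 3D, clone 2 was higher at 3 genes and lower at 5 (54.9% of all genes called, 26.4% higher and 28.5% lower), with a median of -0.20 beside 0.00 over all genes. Lamb3 was lower in clone 2, at -1.85 ± 0.05 on the log2 scale (27.7% of the level in clone 1, adjusted p = 3.1e-20), as was Lama3 at -1.31 ± 0.05 (40.3%, adjusted p = 5.8e-17), and Agrn was higher by 0.74 ± 0.05 (adjusted p = 3.8e-12). With the chromosome medians subtracted these were -1.39, -1.13 and 0.48, all still called. Lamc1 was at -0.60 ± 0.05, Hspg2 at 0.30 ± 0.07, Lama5 at -0.20 ± 0.05, Lamb1 at 0.14 ± 0.05 and Nid1 at -1.87 ± 0.71. Of these, Hspg2 (0.04), Lama5 (-0.11) and Nid1 (-1.71) lost their calls with the chromosome medians subtracted, Lamc1 was then at -0.13 (adjusted p = 0.034) and Lamb1 at 0.23 (adjusted p = 0.00084). The 79 genes within 10 Mb of Lama5 had a median of 0.05 here, beside -0.09 for its chromosome. Lamb1 lost its call without any of the 4 libraries compared (0.12 to 0.16), with other size factors (adjusted p = 0.0631), with DESeq2 (adjusted p = 0.0636) and without Gm26917 and Gm42418 (adjusted p = 0.0593). Nid1 lost its call with DESeq2 (adjusted p = 0.0581) and without clone 1 3D replicate 1 (-1.57), clone 2 3D replicate 1 (-2.06) or clone 2 3D replicate 2 (-1.71).

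Whether the effect of a clone differed between formats was tested as an interaction, the difference from control in 3D minus that in 2D. For clone 1, 2 of the 9 genes were called higher and 3 lower, where 7.02% of all genes were called (3.57% higher and 3.44% lower). For clone 2, 2 were called higher and 2 lower, where 22.2% of all genes were called (7.43% higher and 14.8% lower). Lama3 and Lamb3 were called for both clones, at 0.61 ± 0.08 (adjusted p = 1.0e-05) and 0.80 ± 0.07 (adjusted p = 4.0e-08) for clone 1 and at -1.30 ± 0.08 (adjusted p = 1.5e-11) and -1.16 ± 0.08 (adjusted p = 4.5e-11) for clone 2. Both clones' interactions use the same control libraries. Hspg2 was also called for both, at -0.39 ± 0.10 for clone 1 and 0.61 ± 0.10 for clone 2, Lamb2 (-0.58 ± 0.11) and Agrn (-0.32 ± 0.08) for clone 1, and Lama5 (0.40 ± 0.07) for clone 2. For clone 1, the calls of Hspg2 (adjusted p = 0.012) and Agrn (adjusted p = 0.0091) were lost when single libraries were left out, Hspg2 without control 2D replicate 1, clone 1 2D replicate 2, control 3D replicate 1 or either clone 1 3D library, and Agrn without control 3D replicate 2 or clone 1 3D replicate 1. Lamb1, not called in either interaction, was called for clone 1 without control 2D replicate 2 (-0.32, adjusted p = 0.0084) and with no filter (-0.22, adjusted p = 0.0372), and for clone 2 without control 2D replicate 2 (-0.24, adjusted p = 0.0239).

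Other parts of the pathway were followed through lists of genes grouped by role. The values of listed genes are given without subtraction of chromosome medians. Over all genes tested, 19.8% were called higher and 20.0% lower in clone 1 in 2D, and 22.0% and 23.0% in 3D. For clone 2 these shares were 18.9% and 15.0% in 2D, and 11.9% and 17.4% in 3D. In control, 41.7% were called higher and 35.6% lower in 3D than in 2D. Of 29 other structural genes of basement membranes 18 could be tested, and clone 1 had 5 higher and 4 lower in 2D and 4 and 5 in 3D, while clone 2 had 6 and 6, and 5 and 6. Their medians in these comparisons were -0.03, -0.21, -0.35 and -0.04, where genes with 0 counts in a group were set at their bound. Col4a4, at 2 counts against 0 in clone 2 in 2D, was left out of that median. With fitted values for all 18 genes it was -0.25 in place of -0.35. In control 10 rose and 5 fell in 3D, with a median of 0.54 beside 0.10 over all genes. Ecm1, which binds perlecan and laminins, rose by 2.96 ± 0.08 in 3D in control and fell by 1.56 ± 0.07 in clone 2 in 3D. Col4a1, a chain of the main collagen IV network, fell by 0.81 ± 0.05 in 3D in control, opposite to 7 of the 9 genes. Col4a2, of the same list, did not fall with it, at 287 ± 2.32 CPM in control in 2D and 310 ± 3.47 in 3D. Npnt (nephronectin) rose by 1.50 ± 0.07 in 3D in control and by 0.66 ± 0.06 in clone 2 in 3D. Sparc, a collagen-binding protein, rose by 0.68 ± 0.06 in clone 1 in 2D and in clone 2 fell by 2.40 ± 0.08 in 2D and fell by 5.41 ± 0.10 in 3D. Col18a1, a collagen with heparan sulfate chains, rose in clone 1 by 0.74 ± 0.06 in 2D and 0.48 ± 0.05 in 3D. Col4a5 in clone 1 fell by 1.27 ± 0.12 in 2D and fell by 2.21 ± 0.14 in 3D, and in clone 2 in 2D it fell by 1.12 ± 0.12. In clone 2 in 3D the mean of Col4a5 was 21.5 CPM, above the 15.1 of control. Col7a1, the anchoring fibril collagen, fell by 0.77 ± 0.08 in clone 2 in 2D, and Ntn1, a guidance cue that can bind laminins, fell by 0.77 ± 0.08 in clone 1 in 3D. Ntn1 lies on chromosome 11, whose 1122 tested genes had a median of -0.43 in clone 1 in 3D. The part of the chromosome in its fall was not tested.

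Receptors of laminin and agrin were tested for 13 of 14 listed genes. In clone 1, 7 were higher and 3 lower in 2D and 8 and 4 in 3D, with medians of 0.19 and 0.30 beside 0.00 over all genes. In clone 2, 4 were higher and 1 lower in 2D and 1 and 4 in 3D, with medians of 0.09 and -0.13. Of all genes tested, 39.8% were called in clone 1 in 2D and 45.1% in 3D, and 33.9% and 29.2% in clone 2. Itga6, the alpha chain of the hemidesmosome integrin, rose in clone 1 by 1.23 ± 0.05 in 2D and 1.26 ± 0.05 in 3D (adjusted p of 1.2e-15 and 2.3e-16), and in clone 2 in 3D it fell by 0.50 ± 0.05. Sdc1, a syndecan, rose in clone 1 in 3D by 0.62 ± 0.05 and in clone 2 in 2D by 0.40 ± 0.05, and in clone 2 in 3D it fell by 0.22 ± 0.05. Sdc1 lies on chromosome 12, whose median was 0.23 in clone 1 in 3D. For clone 2 that median was 0.17 in 2D and 0.11 in 3D. Itga7, another laminin receptor chain, in clone 1 fell by 1.20 ± 0.12 in 2D and fell by 1.32 ± 0.11 in 3D, and Cd151, a tetraspanin partner of these integrins, rose in 2D by 0.73 ± 0.06 in clone 1 and 0.66 ± 0.06 in clone 2. Itgb1 rose in clone 2 in 2D by 0.34 ± 0.06, and Dag1, which encodes dystroglycan, in clone 2 in 3D fell by 0.25 ± 0.05. In control, 6 were higher and 4 lower in 3D, where 77.2% of all genes were called. Itgb4, the partner of Itga6, rose there by 2.38 ± 0.06, Dag1 by 0.90 ± 0.05 and Itga3 by 0.49 ± 0.05. Other genes overlap 7.041% of the exon bases of Cd151 and 7.655% of those of Itgb4 on the opposite strand, and whether the counting used strand is not stated, so these 2 are less certain.

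The enzymes that put the laminin-binding sugar on dystroglycan were tested for all 13 listed genes. In control 1 rose and 10 fell in 3D, where 41.7% of all genes were called higher and 35.6% lower. The median of the 13 was -0.38 beside 0.10 over all genes, while 5 of the 6 laminin chains rose. Large2 rose by 1.29 ± 0.11, while B3galnt2 fell by 1.25 ± 0.08 and Tmem5 fell by 0.98 ± 0.07. In clone 1, 5 were higher and 5 lower in 2D and 3 and 2 in 3D, and in clone 2, 3 and 4 and 2 and 1. The shares of all genes called were 39.8% and 45.1% for clone 1 and 33.9% and 29.2% for clone 2. Pomgnt1 rose in clone 2 by 0.38 ± 0.07 in 2D and 0.41 ± 0.06 in 3D, and Pomk in clone 1 fell by 0.53 ± 0.10 in 2D and fell by 0.61 ± 0.09 in 3D. B3galnt2 in clone 1 in 2D fell by 0.48 ± 0.09, and in clone 2 fell by 0.44 ± 0.08 in 2D and fell by 0.31 ± 0.09 in 3D. Pomt2 rose in clone 1 in 3D by 0.41 ± 0.09 and Tmem5 in clone 2 in 3D by 0.20 ± 0.07 (adjusted p = 0.042). Other genes overlap 11.73% of the exon bases of Pomgnt1, 9.203% of those of B3galnt2 and 5.846% of those of Pomt2 on the opposite strand, and Tmem5 was not placed in the annotation. Chromosome 4, with Pomgnt1, had medians in clone 2 of 0.20 in 2D and 0.14 in 3D. Chromosome 12, with Pomt2, had a median of 0.23 in clone 1 in 3D. The part of the chromosomes in these values was not tested. B4gat1 rose in clone 1 by 0.85 ± 0.10 in 2D and 1.05 ± 0.09 in 3D, but 85.3% of its exon bases lie in another gene on the same strand, so its value is uncertain.

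Genes that build and edit the heparan sulfate chains of perlecan and agrin were tested for 16 of 19. Clone 1 had 7 higher and 3 lower in 2D and 5 and 2 in 3D, clone 2 had 2 and 2, and 1 and 5, and the control had 8 higher and 5 lower in 3D. Their medians were between -0.03 and 0.04 in these 5 comparisons. Of all genes tested, 39.8% and 45.1% were called in clone 1 in 2D and 3D, and 33.9% and 29.2% in clone 2. Between formats in control, 77.2% of all genes were called. Ext2, of the polymerase that extends the chain, rose in clone 1 by 0.79 ± 0.09 in 2D and 0.69 ± 0.08 in 3D, in clone 2 in 2D by 0.60 ± 0.09, and in 3D in control by 0.93 ± 0.09. Ndst1, which removes acetyl groups and adds sulfate, rose in clone 1 by 0.37 ± 0.06 in 2D and 0.42 ± 0.05 in 3D and in control in 3D by 0.91 ± 0.06. Sulf2, which removes sulfate from finished chains, rose in clone 1 in 3D by 1.56 ± 0.14 and in clone 2 in 3D fell by 0.77 ± 0.16. Hs2st1, a sulfotransferase, in clone 2 fell by 0.25 ± 0.05 in 2D and fell by 0.38 ± 0.05 in 3D, and Glce fell by 1.03 ± 0.07 in 3D in control. B3galt6, of the linker to the core protein, rose in clone 2 in 2D by 0.53 ± 0.15, and Hs6st1, another sulfotransferase, in clone 2 in 3D fell by 0.31 ± 0.07. Other genes overlap 8.066% of the exon bases of Hs6st1 on the opposite strand, so its value is less certain. Hs6st1 lies on chromosome 1, whose 776 tested genes had a median of -0.53 in clone 2 in 3D. B3galt6 lies on chromosome 4, whose median in clone 2 in 2D was 0.20. The part of the chromosomes in these 2 values was not tested. Hpse, heparanase, had 0 counts in clone 1 in 2D against 30 in control. That is 9.18-fold lower over a floor of 3 counts per group, with the 30 counts taken as exact.

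Proteases that cut basement membrane proteins were tested for 10 of 14. In 3D, 9 were higher and 1 lower in clone 1, with a median of 0.36 beside 0.00 over all genes, and 2 and 2 in clone 2, with a median of 0.06. In 2D, 5 were higher and 3 lower in each clone, and in control 8 rose and 1 fell in 3D, with a median of 0.83. The shares of all genes called were 45.1% for clone 1 and 29.2% for clone 2 in 3D, and 39.8% and 33.9% in 2D. In control, 41.7% of all genes were called higher in 3D and 35.6% lower. Mmp3, a stromelysin, in 2D fell by 1.76 ± 0.11 in clone 1 and fell by 2.69 ± 0.12 in clone 2. In 3D Mmp3 rose by 1.66 ± 0.07 in clone 1 and fell by 0.88 ± 0.08 in clone 2. Mmp14, a membrane-bound protease that cleaves laminin chains, rose in clone 1 by 0.73 ± 0.06 in 2D and 0.83 ± 0.06 in 3D. Bmp1, which trims laminin chains, rose in clone 2 by 0.58 ± 0.05 in 2D and 0.48 ± 0.05 in 3D. Mmp9 in 2D fell by 0.88 ± 0.10 in clone 1 and fell by 1.00 ± 0.10 in clone 2. In 3D its mean was 98.4 CPM for control, 75.5 for clone 1 and 131 for clone 2. Adamts1 rose in clone 1 in 3D by 0.71 ± 0.06, in clone 2 in 3D fell by 0.35 ± 0.06, and in control fell by 1.58 ± 0.06 from 2D to 3D. Adam10 and Furin rose in control in 3D by 2.52 ± 0.09 and 1.81 ± 0.07.

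Across the 12 libraries, with the mean of each format subtracted, the levels (log2 CPM) of Lama3 and Lamb3 had a Pearson correlation of 0.80. Lama5 and Lamb2 were at 0.79 and Lamb2 and Hspg2 at 0.81, while Agrn ran against Lamc1 (-0.86) and Lamb3 (-0.84). These are descriptions over 6 groups of 2 libraries, which share cells and culture, and carry no test. Chromosome medians were not subtracted from these levels. In clone 2 against control, chromosome 1, with Lamc1 and Lamb3, had medians of -0.29 in 2D and -0.53 in 3D. Chromosome 4, with Agrn and Hspg2, had medians of 0.20 and 0.14. The part of the chromosomes in the correlations was not tested. By the same measure over 9761 genes with a mean of at least 5 CPM, the genes most like Lama3 were Cdcp1 (0.98) and Sdc1 (0.97), and those most like Lamb3 were Ndc1 and Mthfd1l (0.98 each). Most like Agrn were Erbb3 and Kdm4a, most like Lamc1 were Dennd1b and Uggt1, and most like Lama5 were Spns1 and Dus3l, all at 0.98. Lamb2 was most like Mta3 and Map4k3 (0.96 each), Lamb1 most like Vezt and Grcc10 (0.95 each), and Hspg2 most like Tmem259 (0.94) and Kirrel (0.93). Nid1 was below the level needed.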

How the data were processed

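Polyadenylated RNA of 4T1 cells was sequenced in 12 libraries of 6 groups. The authors deposited raw counts of reads for each gene symbol, as separate tables of 31017 genes for 2D and 3D. Per the submitters' processing notes, the tools were FastQC 0.11.9, STAR 2.7.9a, featureCounts, R 4.1.1 and Cell Ranger 3.0.0 and the build was mm10, with no statement of what each tool did or of the strand setting. Collagen I was used at one of 2 concentrations per the labels' protocols, which do not say at which for each library.

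Both tables were joined by symbol. Genes were filtered with filterByExpr (minimum count 10), which left 13763, and library sizes were scaled with edgeR's TMM factors. A mean per group was fitted over all 12 libraries with the quasi-likelihood method of edgeR 4.0.16 in R 4.3.3 (6 residual degrees of freedom, biological coefficient of variation 4.51%). In 11 comparisons edgeR's quasi-likelihood F test (two-sided) gave each p, adjusted by Benjamini and Hochberg's method across the whole table, with a threshold of 0.05. A call means an adjusted p under it. The scripts were tested on simulated data. CPM use the scaled library sizes, and SDs are of 2 libraries. Alternatives were other size factors, DESeq2 1.42.0, no filter, 1 format alone, Gm26917 and Gm42418 left out, chromosomes centred on their median change, a replicate block and each library left out.

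Positions and lengths are from GENCODE M21, which placed 13612 of the 13763 genes (98.9%). Counting intervals cover counting error only, since reads without molecular identifiers are not independent molecules. Floors take the count of the higher group as exact and allow for no error in it. The 9 genes, the lists and the tests were chosen with earlier results of these data known. The rule named all 9 genes, the up to 3 genes of each list with the smallest adjusted p in each clone against control and in 3D against 2D in control, and the 2 genes most correlated with each of the 9. Some listed genes are not reported here. Replicates differed beyond counting noise in every group (chi-square per degree of freedom 3.49 to 9.40).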

Additional observations from a re-analysis of the deposited data

Results flagged for a closer look

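By edgeR's interaction test, a clone effect differed between collagen gel and plastic at 5 of the 9 genes for clone 1, where 7.02% of all genes were called, and at 4 for clone 2, where 22.2% were called. Values are the log2 difference from control in 3D minus that in 2D. For clone 1, Lama3 was at 0.61 (adjusted p = 1.0e-05) and Lamb3 at 0.80 (adjusted p = 4.0e-08). Lamb2 was at -0.58 (adjusted p = 0.00098), Hspg2 at -0.39 (adjusted p = 0.012) and Agrn at -0.32 (adjusted p = 0.0091). The Hspg2 call was lost without control 2D replicate 1 (-0.27), clone 1 2D replicate 2 (-0.28), control 3D replicate 1 (-0.38), clone 1 3D replicate 1 (-0.39) or clone 1 3D replicate 2 (-0.38). The Agrn call was lost without control 3D replicate 2 (-0.31) or clone 1 3D replicate 1 (-0.29).

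For clone 2, Lama3 was at -1.30 (adjusted p = 1.5e-11) and Lamb3 at -1.16 (adjusted p = 4.5e-11). Hspg2 was at 0.61 (adjusted p = 5.2e-05) and Lama5 at 0.40 (adjusted p = 0.00027). With chromosome medians subtracted, Lamb3 was at -0.91 and Lama3 at -1.21. The 4 calls held under each alternative run, with adjusted p of at most 0.0045.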

How the results depend on the processing

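Under the alternatives, 1833 values of the 9 genes were recomputed, of which 1730 kept direction and call, 70 kept direction and lost the call, 13 kept direction and gained it, and 20 changed sign. With a replicate block within each format the members called were 6, 7, 4 and 5 for clone 1 and clone 2 in 2D and then in 3D, as without it, and no call of the 9 genes changed in any of the 11 comparisons. The difference between replicate 1 and replicate 2 of a group was correlated over 9761 genes between groups of the same format. These correlations were -0.088 to 0.165, the highest between control and clone 2 in 3D, so the replicate numbers showed little pairing of the libraries. With chromosomes centred, the members called in clone 1 against control in 2D moved from 6 to 3 and those in clone 2 against clone 1 in 3D from 8 to 5. With 1 library left out at a time, the members called in the interaction of clone 1 ranged from 3 to 6, with 3 without clone 1 3D replicate 1.

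The values that changed sign lay between -0.16 and 0.04 in the main analysis. With chromosomes centred these were Agrn in clone 1 in 2D (0.025), Lamb3 in clone 2 in 2D (0.26), Lamc1 in clone 1 in 3D (0.0186), Lamb1 in 3D against 2D in control (-0.14) and Lamc1 in the interaction of clone 2 (0.0856). Lamb1 in clone 1 in 3D was at 0.022 with other size factors and with DESeq2 and at 0.0259 without Gm26917 and Gm42418, and Lama5 in the interaction of clone 1 was at 0.00284 without them. With 1 library left out at a time, Lamb3 in clone 2 in 2D ranged from -0.0916 to 0.0251, Lamb1 in clone 1 in 3D from -0.0398 to 0.0105, Lamb2 in clone 2 in 3D from -0.016 to 0.0268 and Lamb1 in 3D against 2D in control from -0.0542 to 0.109. In the interaction of clone 1, Lama5 ranged from -0.108 to 0.0296 and Nid1 from -0.87 to 0.55, and in that of clone 2 Agrn ranged from -0.0065 to 0.086. The cause of these changes was not tested.

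Over all genes, the interaction calls were 492 higher and 474 lower for clone 1, 694 and 371 without Gm26917 and Gm42418, and 342 and 196 without clone 1 3D replicate 2. For clone 2 they were 1022 and 2037, 1182 and 1360 with chromosomes centred, and 1231 and 1577 without Gm26917 and Gm42418. Testing without a filter on low counts, over 20769 genes, moved the median change of all genes in 3D against 2D up by 0.13 to 0.19. Nid1, at 1 to 22 counts per library, is the gene that depth limits.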
